A study of Homo sapiens with 22 samples.

Results

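Tags of extreme GC content were examined in a pool of luciferase reporter plasmids, in which a short sequence tag in each transcript identifies the plasmid it came from. A deposited tag has 15 bases: 12 that vary, and ggc at the end of every tag. Members were tags with 100 or more counts in both lines' input DNA that held 2 or fewer, or 10 or more, G or C among its 12 variable bases. Of 238017 tags listed in any library, 211385 had 100 counts in both inputs, and 2853 of these were members. The low group held 2229 tags, all with exactly 2 G or C, and the high group held 624, all with exactly 10. The 52872 tags with 6 G or C served as the reference. The choice used the tag sequence and the input counts, and no RNA value.

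The pool was transfected into A549, a human lung adenocarcinoma cell line, and into H520, a human lung squamous cell carcinoma cell line. Cells received DMSO, the solvent control, or benzo(a)pyrene (BaP) at 10 µM. BaP is an aromatic compound found in tobacco smoke and other products of combustion. A549 cells were exposed for 18 h and H520 cells for 42 h. Each line and treatment had 5 transfections, numbered 1 to 5, and each line had 1 input library of the plasmid DNA. All groups carried transiently transfected plasmids, so the reporters are not in a chromosome. The input titles read A549_Input_v1 and H520_Input_v2. They do not say whether both lines received the same preparation of the pool. The labels do not say whether transfections came from separate cultures, so p-values measure only the spread between these transfections, which may be technical. The files hold synthetic tags and no genes, so the lines were not checked against marker genes.

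In such an assay the RNA count of a tag is set against its DNA count, and the ratio is read as the activity of the regulatory fragment cloned in that plasmid. The tag itself is meant to be neutral. It is nevertheless part of the transcript and of every copying step, and base composition is known to affect the melting of DNA, the folding of RNA, and how evenly polymerases copy a mixture. TpA and CpG, a T followed by an A and a C followed by a G, are the dinucleotide steps best known for being treated unlike others, TpA in RNA decay and duplex flexibility and CpG in methylation. Both read the same on either strand, so they can be counted although the strand column reads minus in every row and the orientation of the tag in the transcript is not settled.

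The listed tags did not fill the space of 12-base sequences. All 238017 listed tags held each of the 4 bases, and none held a run of 4 equal bases. Every low tag therefore had 1 C and 1 G, every high tag had 1 A and 1 T, and no tag had fewer than 2 or more than 10 G or C. The trimers aca, cac, gtg and tgt occurred in no listed tag. Of the low members, 1532 had another low member that differed at 1 base, 677 had their nearest at 2 bases and 20 at 3. For the high members these numbers were 323, 261 and 40. Members are thus not independent sequences, and several tags can mark the same cloned fragment.

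The low tags shown first had the highest activity among the 1689 low members with at least 500 counts in both inputs, 3 in each line, of which 2 were shared. The G and the C are in capitals.
LA: ttGattaatCtaggc
LB: aataaCttGataggc
LC: attaaaCGtaatggc
LD: aatGCtttataaggc

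The low tags with the lowest activity under the same limit were the next 6, the first 3 from A549 and the last 3 from H520, with the G and the C in capitals.
LE: GttatttCtttaggc
LF: taaattaaCGatggc
LG: ttataGtaatCaggc
LH: tataCtatGattggc
LI: taCttataaGtaggc
LJ: tataCtattaGtggc

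The low tags with the largest called line difference toward A549 and toward H520 were the following, marked in the same way.
LK: ataGtttaCtttggc
LL: aaaCGataaataggc

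For TpA, 2 low tags without this step and 2 with 4 of them were taken nearest to the median A549 activity of their class, a choice made after values were seen. Here the capitals mark TpA.
LM: tttgatttctttggc
LN: aatcaaagatttggc
LO: TAgTAtcTATAtggc
LP: cTATAagTAaTAggc

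The A-rich low tags LQ and LR and the T-rich low tags LS and LT were nearest to their class medians in A549 with DMSO, with the G and the C in capitals.
LQ: ataattaaCGaaggc
LR: ataattaCGaaaggc
LS: ttGattaCttatggc
LT: tatttCGatttaggc

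Among the 470 high members with at least 500 counts in both inputs, HA to HD had the highest activity in A549 or H520, and HE to HJ the lowest, the first 3 of them in A549 and the last 3 in H520. The A and the T are in capitals.
HA: AccgccgTccgcggc
HB: gccgAggTccggggc
HC: cgcTAccgccgcggc
HD: gTcgcgcgAgccggc
HE: ccgccgTcgAggggc
HF: ccgccgATcgggggc
HG: ggcggTcgcgcAggc
HH: ccgcccgTAgggggc
HI: TgAccgccgggcggc
HJ: gggcggTcgcAgggc

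Further high tags in the text are HK, called between the lines, HL, called active in A549 with BaP, the G-rich tags HM and HN and the C-rich tags HO and HP nearest to their class medians in A549 with DMSO, and HQ and HR, which had the smallest p for BaP in A549 and in H520. HK, HL, HQ and HR were chosen after values were seen. The A and the T are in capitals.
HK: cccgcATgcccgggc
HL: ggAccgccgTcgggc
HM: ggcgTAgccgggggc
HN: gccggTcggAggggc
HO: ccgcgcTAcccgggc
HP: ccgcccgAcgcTggc
HQ: ccggTcgcAggcggc
HR: cgcggAcgcTgcggc

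The members were well covered in the inputs. Low tags had a median of 1141 counts in the A549 input and 912 in the H520 input, against 1313 and 1053 for the reference and 1243.5 and 1012 for high tags. Per 1000000 counts of the library (TPM), the medians were 3.42 and 3.43 for low, 3.94 and 3.96 for reference and 3.73 and 3.81 for high tags. The log2 ratio of the A549 to the H520 input TPM had a median of -0.016 in low, -0.0095 in reference and -0.032 in high tags. The median ratio thus differed little between these GC classes. The TpA and base-excess contrasts inside the groups did move with the choice of input, as given below. Counting error alone gives an input count of 100 an exact 95% Poisson interval of 81.4 to 121.6, and one of 1141 an interval of 1076 to 1209. No member was at 0 in any RNA library. Libraries held 177.6 to 371.4 M counts.

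Activity here is log2 of RNA TPM plus 0.5 over the TPM of the same line's input plus 0.5, minus the median over the 211385 tags of that library. A value of 0 is the typical tag, and 1 is a 2-fold higher ratio of RNA to DNA.

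Transfections 3 and 4 of A549 stood apart from the other A549 libraries for high tags in both treatments, and for low tags with DMSO. With BaP, low tags set transfection 4 apart but not transfection 3. That library had -0.16 relative to the reference, beside -0.18 in transfection 2. Transfections 3 and 4 were singled out after these values were seen. They held 211.5 to 308.3 M counts, against 177.6 to 349.9 M in the other 6. They listed 231291 to 232257 tags, against 229431 to 231073 in the others. Tags with no count in either input, described at the end, were also read more often in them. Why these libraries differ was not tested. For A549, group offsets, calls against the median and line differences are given with and without these libraries.

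Low tags had less RNA per DNA than reference tags in H520, in every library, and the offset was a shift of nearly the whole group. The median activity of low tags minus that of reference tags was -0.33, -0.34, -0.42, -0.40 and -0.32 in H520 transfections 1 to 5 with DMSO, a mean of -0.36 ± 0.045 (SD, n = 5), or 0.780 times the reference level. With BaP it was -0.27, -0.32, -0.41, -0.37 and -0.34, a mean of -0.34 ± 0.052 (SD, n = 5). All 10 H520 values lay below 0, and transfections 3 and 4 were the lowest with DMSO and with BaP. No p is given for these offsets, since the tags of a group are not replicates.

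In A549 the low tags were lower in some transfections and level with the reference in others. With DMSO the difference from the reference was -0.22, -0.24 and -0.24 in transfections 1, 2 and 5, but 0.025 and 0.016 in transfections 3 and 4, a mean of -0.13 ± 0.14 (SD, n = 5). With BaP it was -0.33, -0.18, -0.16, -0.0049 and -0.21 in transfections 1 to 5, a mean of -0.18 ± 0.12 (SD, n = 5). Without transfections 3 and 4, the means were -0.23 with DMSO and -0.24 with BaP. The SD between transfections in A549 was thus as large as the mean with DMSO, and the highest H520 difference, -0.27, lay above the lowest A549 difference with BaP.

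High tags lay above the reference in H520 and on either side of it in A549. In H520 the high minus reference difference was 0.080, 0.11, 0.14, 0.15 and 0.083 with DMSO, a mean of 0.11 ± 0.032 (SD, n = 5), and 0.086, 0.11, 0.16, 0.14 and 0.094 with BaP, a mean of 0.12 ± 0.031 (SD, n = 5). All 10 values were above 0. In A549 it was 0.057, 0.096, -0.064, -0.11 and 0.059 with DMSO (0.0074 ± 0.090, SD, n = 5) and 0.089, 0.058, -0.054, -0.10 and 0.084 with BaP (0.014 ± 0.088, SD, n = 5). The 4 negative values were those of transfections 3 and 4, and without them the means were 0.071 and 0.077. With DMSO, the 3 A549 libraries whose high tags lay above the reference were those whose low tags lay below it.

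The extremes ended a graded series. With DMSO in H520, median activity was -0.33 at 2 G or C, -0.23 at 3, -0.12 at 4, -0.034 at 5, 0.029 at 6, 0.075 at 7, 0.10 at 8, 0.13 at 9 and 0.14 at 10. Each of the 10 H520 libraries kept this order from 2 to 10. In A549 with DMSO the same order from 2 to 10 held in transfections 1, 2 and 5, while in transfection 4 the median went from 0.017 at 2 to -0.11 at 10. Tags just outside the limits, with 3 or with 9 G or C, had means of -0.073 ± 0.079 and 0.028 ± 0.073 in A549 with DMSO, beside -0.12 ± 0.13 and 0.018 ± 0.099 for members at 2 and at 10 (SD, n = 5).

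Single tags spread around these medians. In H520 with DMSO, 93.3% of low tags had a mean activity below 0, against 44.3% of reference and 20.2% of high tags. In A549 with DMSO these shares were 68.9%, 48.8% and 47.0%. At or below -0.5 were 17.4% of low tags in H520 with DMSO, against 0.399% of reference tags. Agreement between transfections was poorer in A549 than in H520 for members: the median SD of a low tag over 5 transfections was 0.163 in A549 with DMSO and 0.107 in H520, while a reference tag had 0.0979 and 0.0944.

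Tested one by one against the library median with limma and Benjamini-Hochberg adjustment over all tags, most low tags were below it in H520. With DMSO, 1899 of 2229 low tags were called below the median and 78 above, where 27.2% and 28.9% of all 224276 tags tested were called. Of 624 high tags, 341 were called above and 31 below. With BaP in H520, 1867 low tags were below and 87 above (28.0% and 29.7% of all tags), and 362 high tags were above and 37 below. The low group's share of calls below, 85.2% with DMSO, stood far from the share among reference tags, 20.4%.

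In A549 the calls were more even. With DMSO, 995 low tags were called below the median and 314 above, beside 28.2% and 31.2% of all 223690 tags tested, and 195 high tags were called above and 158 below. With BaP, 1325 low tags were below and 300 above (32.1% and 34.9% of all tags), and 225 high tags were above and 170 below. Without transfections 3 and 4, 1496 low tags were below and 242 above with DMSO, and 1450 and 188 with BaP. Of all 223690 tags, 68659 were then below and 74614 above with DMSO, and 63089 and 67062 with BaP. High tags above and below then numbered 286 and 118 with DMSO and 263 and 92 with BaP.

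Strong activity was rare among members, as it was among all tags. Called more than 2-fold above the median by limma's treat were 18 of 2229 low and 4 of 624 high tags in A549 with DMSO (0.982% of all tags were), 19 and 5 with BaP (0.986%), 15 and 2 in H520 with DMSO (0.786%) and 15 and 2 with BaP (0.81%). The low calls were 0.808%, 0.852%, 0.673% and 0.673% of the low tags in these groups, and the high calls 0.641%, 0.801%, 0.321% and 0.321% of the high tags. Without transfections 3 and 4, limma's treat called 15 low and 4 high tags in A549 with DMSO, beside 1839 of all 223690 tags. With BaP it then called 0 of all tags, so the 0 low and 0 high calls are not particular to members. An unadjusted p under 0.05 was reached there by 20 low, 7 high and 2451 of all tags. Of the low calls with DMSO, 11 were made in both lines, which is 61.1% of the A549 calls and 73.3% of the H520 calls. The same overlap was not counted over all tags, so it is not shown to be particular to low tags. No member was called more than 2-fold below the median by limma's treat in any group, and none had an unadjusted p under 0.05 there. Of all tags, 0%, 0%, 0.0111% and 0.012% were called below in A549 with DMSO, A549 with BaP, H520 with DMSO and H520 with BaP.

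The most active low tags reached the levels of strong reporters. LB had 3.36, 3.45, 3.85, 3.70 and 3.10 in A549 transfections 1 to 5 with DMSO, a mean of 3.49 ± 0.29, and 3.06, 3.09, 2.95, 3.14 and 3.04 in H520, a mean of 3.05 ± 0.068 (SD, n = 5; limma treat adjusted p = 1.64e-05 and 4.1e-11). LC had 2.96 ± 0.18 and 2.77 ± 0.060, and LD 2.67 ± 0.12 and 2.94 ± 0.10 (SD, n = 5). These 3 were high in every library of both lines.

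LA differed between transfections far more than they did. It had 3.76, 2.72, 3.15, 4.14 and 4.31 in A549 with DMSO, a mean of 3.61 ± 0.67, and 2.40, 2.95, 4.24, 4.49 and 4.67 with BaP, a mean of 3.75 ± 1.01 (SD, n = 5). In H520 it kept to 1.36, 1.59, 1.60, 1.76 and 1.60 with DMSO. Its highest A549 values came from transfections 4 and 5 in both treatments.

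Among high tags, HA and HB were the most active. HA had 4.29, 3.28, 3.31, 4.21 and 4.79 in A549 with DMSO, a mean of 3.98 ± 0.66, and 2.31, 2.60, 2.95, 3.02 and 2.65 in H520, a mean of 2.71 ± 0.29 (SD, n = 5). HB went the other way, with 2.35, 2.65, 2.56, 2.28 and 2.16 in A549 and 3.22, 3.23, 3.08, 3.39 and 3.21 in H520. The A549 and H520 values of each did not overlap, but neither difference was called between the lines at 2-fold (edgeR glmTreat, adjusted p of 1 for both).

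HC, HK and HL were called more than 2-fold above the median in A549 and not in H520, and of these HK alone was called between the lines. HC had 1.98 ± 0.47 in A549 and 0.71 ± 0.15 in H520, HK 1.5 ± 0.13 and -0.064 ± 0.18, and HL 1.54 ± 0.44 and 0.24 ± 0.060, all with DMSO (SD, n = 5). HL passed the 2-fold test with BaP (limma treat adjusted p = 0.0295) and not with DMSO (adjusted p = 0.142), but its log2 fold change of BaP over DMSO was 0.18 (SE 0.33, edgeR adjusted p = 0.9999). HD, the third highest in H520, had 1.03 ± 0.059 there and 0.57 ± 0.12 in A549, and was not called.

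The least active members were lower by less than 2-fold. LH had -0.87, -0.95, -0.97, -0.98 and -0.80 in H520 with DMSO, a mean of -0.91 ± 0.077, beside -0.62, -0.69, -0.32, -0.41 and -0.68 in A549 (SD, n = 5). LI and LJ had -0.88 ± 0.049 and -0.88 ± 0.053 in H520, and -0.40 ± 0.055 and -0.42 ± 0.15 in A549. LE, LF and LG, the lowest in A549, had -0.74 ± 0.11, -0.68 ± 0.17 and -0.68 ± 0.077 there and -0.38 ± 0.16, -0.61 ± 0.10 and -0.40 ± 0.16 in H520. These 6 low tags were below 0 in all 10 DMSO libraries.

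The lowest high tags in A549 were not low in H520. HE had -0.77 ± 0.24 in A549 and -0.059 ± 0.15 in H520, HF -0.56 ± 0.13 and -0.076 ± 0.10, and HG -0.54 ± 0.086 and 0.13 ± 0.10, with DMSO (SD, n = 5). HH, the lowest in H520, had -0.55, -0.77, -0.62, -0.63 and -0.68 there and -0.29, -0.36, -0.77, -0.54 and -0.28 in A549. HI and HJ had -0.39 ± 0.14 and -0.35 ± 0.078 in H520 and -0.50 ± 0.16 and -0.31 ± 0.11 in A549. HE and HF both begin with ccgccg.

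Across members the lines ranked tags in a similar way, as they did for the reference. Over the 2229 low tags, mean DMSO activity in A549 followed that in H520 with Pearson r = 0.607 and Spearman rho = 0.423. Over the 624 high tags these were 0.609 and 0.378, and over reference tags 0.596 and 0.389. These are descriptions across tags, which share libraries and may share fragments.

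Within the low group, tags with more TpA steps were lower, in every one of the 20 RNA libraries. The 771 low tags with 3 or more TpA had a median activity below that of the 338 with 0 or 1 by -0.12, -0.088, -0.10, -0.11 and -0.10 in A549 transfections 1 to 5 with DMSO, a mean of -0.10 ± 0.010 (SD, n = 5). The mean was -0.11 ± 0.0077 in A549 with BaP, -0.099 ± 0.012 in H520 with DMSO and -0.10 ± 0.011 in H520 with BaP. A549 transfections 3 and 4 had -0.10 and -0.11 with DMSO and -0.12 and -0.10 with BaP, the same size as the rest. The contrast was chosen after values were seen. All libraries of a line share 1 input, so the SD leaves out the error of that input. With the other line's input as the denominator, the means were -0.057 with DMSO and -0.070 with BaP in A549. In H520 they were then -0.14 and -0.15.

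The order held at each number of steps. In H520 with DMSO, low tags with 0, 1, 2, 3 and 4 TpA had medians of -0.22, -0.28, -0.31, -0.37 and -0.44, over 12, 326, 1120, 684 and 87 tags, and in A549 -0.036, -0.075, -0.098, -0.17 and -0.25. Among low tags with 5 A and 5 T, so of equal base content, the medians in H520 with DMSO were -0.28 for 92 tags with 1 TpA, -0.33 for 378 with 2, -0.35 for 259 with 3 and -0.44 for 39 with 4. Reference tags were ordered as well, from 0.063 with no TpA to -0.067 with 3 in H520 with DMSO. ApT, the same bases in the other order, ran slightly the opposite way in low tags, from -0.35 with none to -0.29 with 4.

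Single tags overlapped across these classes. LM and LN, without TpA, had -0.12 ± 0.16 and 0.045 ± 0.17 in A549 with DMSO and -0.085 ± 0.15 and -0.40 ± 0.11 in H520. LO and LP, with 4 TpA, had -0.24 ± 0.27 and -0.23 ± 0.13 in A549 and -0.42 ± 0.18 and -0.82 ± 0.071 in H520 (SD, n = 5). Of the 6 least active low tags, LI and LJ held 4 TpA and LG and LH held 3, while LE, LF and the 4 most active held 2.

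Where the G and the C stood also went with the level of low tags. The 387 low tags with both in bases 1 to 6 had medians of -0.058 ± 0.10 in A549 and -0.23 ± 0.040 in H520 with DMSO, and the 459 with both in bases 7 to 12 had -0.17 ± 0.13 and -0.38 ± 0.038 (SD, n = 5). The 150 low tags with G as base 12, beside the constant ggc, had -0.20 ± 0.15 and -0.42 ± 0.038, while the 183 with C there had -0.12 ± 0.14 and -0.31 ± 0.048. High tags showed little of this: those with both the A and the T in bases 1 to 6 had 0.027 and 0.13, and those in bases 7 to 12 had 0.0065 and 0.15.

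Within the high group, tags with more CpG steps were slightly lower. The 88 high tags with 4 or more CpG lay below the 192 with 2 or fewer by -0.049 ± 0.0075 in A549 with DMSO, -0.040 ± 0.027 with BaP, -0.044 ± 0.027 in H520 with DMSO and -0.077 ± 0.019 with BaP (SD, n = 5). All 20 values were below 0, but H520 transfection 3 with DMSO had -0.0006. With the other line's input as the denominator, the means with DMSO were -0.065 in A549 and -0.092 in H520. GpC, with the bases reversed, ran upward in H520, from 0.026 in 7 tags with none to 0.17 in 17 tags with 4. In reference tags the medians hardly moved with CpG, from 0.025 with none to 0.023 with 3 in H520 with DMSO.

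Excess of a base within its pair gave no difference that kept its sign in both lines under all settings. Of low tags, 104 had at least 4 more A than T and 320 at least 4 more T than A. The A-rich lay above the T-rich by 0.041 ± 0.046 in A549 with DMSO, 0.078 ± 0.041 with BaP, 0.034 ± 0.048 in H520 with DMSO and 0.038 ± 0.016 with BaP (SD, n = 5). LQ, LR, LS and LT had -0.12, -0.12, -0.16 and -0.16 in A549 with DMSO and -0.47, -0.061, -0.12 and -0.36 in H520. With the other line's input as the denominator, the H520 differences were -0.018 with DMSO and -0.044 with BaP. In A549 the mean stayed above 0 under every alternative run, from 0.011 to 0.20 with DMSO and from 0.025 to 0.20 with BaP. With DMSO, 2 of 5 A549 libraries were below 0.

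The high group had 29 G-rich tags, with at least 4 more G than C, and 41 C-rich tags. G-rich minus C-rich was 0.060, -0.060, -0.012, 0.092 and 0.081 in A549 with DMSO, 0.055, 0.082, 0.037, 0.078 and 0.014 with BaP, and -0.070, -0.042, -0.064, -0.067 and -0.066 in H520 with DMSO. In H520 with BaP the mean was -0.049 ± 0.026 (SD, n = 5). As means over tags in place of medians, the A549 values were -0.14 with DMSO and -0.099 with BaP, and with the A549 input as the denominator the H520 values were -6.0e-05 and 0.0095, so the sign rested on these choices. HM and HN had 0.066 and 0.10 in A549 and 0.065 and 0.17 in H520, and HO and HP had 0.054 and 0.056 in A549 and 0.33 and 0.23 in H520, all with DMSO.

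BaP was compared with DMSO tag by tag with edgeR's quasi-likelihood test, and no member was called in either line. The share of all tags called was 0% in each direction, of 223066 tags in A549 and 223732 in H520. DESeq2 also called no member; in H520 it gave an adjusted p to only 46 low and 78 high tags. At an unadjusted edgeR p under 0.05, 4 low tags were higher and 28 lower with BaP in A549, and 65 higher and 18 lower in H520. For high tags these numbers were 5 and 3 in A549 and 17 and 21 in H520. Of all tags, 1.18% were higher and 1.42% lower at this level in A549, and 2.36% and 2.35% in H520.

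The fold changes of members with BaP were small. In A549 the log2 fold change of low tags had a median of -0.060, and 23.8% were above 0, while the median over all tags was -0.0013. This is less than the spread of the low group's offset between A549 transfections. In H520 the median of low tags was 0.018, with 59.3% above 0. The 95% range of low tags was -0.27 to 0.16 in A549 and -0.18 to 0.23 in H520.

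HQ, the member with the smallest p in A549, had 0.32, 0.48, 0.39, 0.17 and 0.34 with DMSO and 0.19, 0.056, 0.011, 0.074 and -0.10 with BaP. Its log2 fold change was -0.52 (SE 0.14, edgeR adjusted p = 0.9999), on 246 and 140 input counts. HR, that of H520, had 0.21, 0.38, 0.30, 0.44 and 0.26 with DMSO and 0.49, 0.41, 0.51, 0.51 and 0.44 with BaP, a log2 fold change of 0.16 (SE 0.047, adjusted p = 0.998). The values of the 2 treatments overlapped in both tags.

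Between the lines, low tags tended toward A549 and high tags toward H520. The log2 ratio of A549 to H520 in DMSO, with each line's input as an offset, had a median of 0.25 over low tags, 82.6% of them above 0, -0.025 over reference tags, -0.15 over high tags, 28.4% of them above 0, and 0.0019 over all tags. Without A549 transfections 3 and 4 the medians were 0.13 over low tags, 70.2% of them above 0, -0.016 over reference and -0.078 over high tags, 39.9% of them above 0. These ratios restate the offsets of the groups. Line goes together with the input library and the exposure time, so their parts cannot be told apart. With the mean of both inputs as the denominator in both lines, low minus reference with DMSO was -0.13 in A549 and -0.36 in H520. Called more than 2-fold by edgeR's glmTreat were 9 low and 1 high tag toward A549, where 0.29% of all 222696 tags were called, and 1 low and 0 high tags toward H520, where 0.221% were. At an unadjusted p under 0.05 no high tag was toward H520. Leaving out H520 transfection 1, 2, 3, 4 or 5 left 4, 5, 5, 4 and 5 low calls toward A549, leaving out A549 transfection 1 left 5, and leaving out A549 transfection 2 gave 15. Without A549 transfections 3 and 4, 4 low and 1 high tag were called toward A549 and 1 low tag toward H520. Of all 222696 tags, 516 were then called toward A549 and 496 toward H520.

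LK had the largest of these differences. Its activity was 4.59, 4.18, 4.38, 4.75 and 4.21 in A549 with DMSO and -0.52, -0.49, -0.65, -0.50 and -0.83 in H520, and 4.36 ± 0.24 and -0.59 ± 0.11 with BaP (SD, n = 5). The log2 ratio was 5.98 (edgeR glmTreat adjusted p = 1.5e-07), on 652 and 314 input counts. It was thus among the most active of all low tags in A549 and below the typical tag in every H520 library. It is not in the set of highest tags, which needed 500 counts in both inputs.

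LL was the low tag called toward H520. It had 1.01, 0.89, 1.04, 1.22 and 1.03 in A549 with DMSO and 2.24, 2.34, 2.12, 2.39 and 2.22 in H520, a log2 ratio of -1.40 (adjusted p = 0.00016). HK, the high tag called toward A549, had 1.67, 1.60, 1.46, 1.43 and 1.35 in A549 and -0.31, -0.16, 0.12, 0.11 and -0.074 in H520, a log2 ratio of 1.79 (adjusted p = 5.94e-07). The values of the lines did not overlap in either tag.

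Short motifs were searched on both strands of the 12 variable bases alone, so matches that reach into the constant end were not counted. ATTAAA, a variant polyadenylation signal, was in 188 low tags (8.43%), 0 high tags, 0.0586% of reference tags and 0.498% of all 211385. Of the 188, 88 held it as deposited. It is made of A and T alone, so high tags could not hold it and its share depends on base content. The low tags with it had medians of -0.081 ± 0.12 in A549 and -0.26 ± 0.028 in H520 with DMSO (SD, n = 5). Over all low tags these medians were -0.12 ± 0.13 and -0.33 ± 0.043 (SD, n = 5). AATAAA was in no tag. GCGTG, the core of the xenobiotic response element, was also in none, since on either strand it needs gtg or cac, which no listed tag held. TGACTCA, the AP-1 consensus, was in 0.0449% of all tags. With more than 2 G or C and more than 2 A or T, it could be in no member.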

How the data were processed

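Per the labels' protocols, polyadenylated RNA was copied into cDNA, and the tag stretch was amplified from cDNA, or from plasmid DNA for the inputs, and sequenced. No molecular identifiers are described, so intervals cover only the error of counting. bcl2fastq is named in the submitters' processing notes; the step from reads to counts was not given in the sources used here. The deposited files list, per the file headers, raw counts and TPM for each tag, and these TPM equal the count over the library total, with 1000000 as the scale. Tags were joined over 22 libraries with 0 where unlisted.

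Levels are medians over tags in each library, with mean and SD over 5 transfections and no test. Activity (limma 3.58.1, treat at 2-fold and eBayes against 0, trend) used tags with at least 10 counts in their own input. Counts of BaP and DMSO were compared with edgeR 4.0.16 (TMM, filterByExpr, robust quasi-likelihood), with DESeq2 1.42.0 as an alternative, and the lines with glmTreat at 2-fold with log input TPM plus 0.5 as an offset. Adjusted p-values are Benjamini-Hochberg over all tags, with a threshold of 0.05. Scripts were tested on simulated data. Named tags were, per group, the 3 highest and 3 lowest in each line with at least 500 input counts, 2 near each class median, BaP calls, and the largest line calls each way. Members, classes and named tags were chosen with earlier results of these data known. Alternatives were other pseudocounts, inputs, count limits, GC limits, normalizations, tests, and libraries left out.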

Additional observations from a re-analysis of the deposited data

Results flagged for a closer look

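G-rich minus C-rich high tags lay above 0 in all 5 A549 transfections with BaP and below 0 in all 5 H520 transfections with BaP, and the means differed by 0.102. The difference between the lines was not tested, and with means over tags in place of medians the A549 value was -0.099.

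In the same contrast in H520 with DMSO, transfection 2 stood apart, with -0.0424 beside -0.070 to -0.064 in the other 4. In the CpG contrast of high tags in A549 with BaP, transfection 2 stood apart, with -0.0856 beside -0.034 to -0.017. These were 2 of 24 sets of 5 values searched, and chance marks about 1 set in 20.

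Outside the comparisons, 32 listed extreme tags (23 low, 9 high) had 0 counts in both inputs. A tag is listed only if some library read it, so each of these was read in RNA by definition. Their summed level was 0.0151 to 0.0804 counts per M in an RNA library. For scale, 3 counts, the limit of a count of 0, give at most 0.0169 per M in any RNA library. That limit holds for 1 tag at RNA depth, and neither for a sum of tags nor for the inputs. The 4 highest values, 0.0804, 0.0778, 0.0725 and 0.0521, were those of A549 transfections 3 and 4, and the highest count of 1 such tag in a library was 9. Their source was not tested.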

How the results depend on the processing

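Of the alternatives that left out no library, 332 values of main results stayed within their spread or within 1.5 times their count, and 64 did not; for those that leave out 1 library, 352 stayed and 8 did not. The low minus reference offset in H520 (-0.36 with DMSO, -0.34 with BaP) kept its sign throughout. It was -0.423 and -0.403 with a pseudocount of 0.1, -0.235 and -0.222 with a pseudocount of 2, -0.271 and -0.262 with limits of 3 and 9, and -0.405 with DMSO among the tags of highest input TPM, when tags were split into 3 equal sets by input. High minus reference in H520 was 0.0792 and 0.0832 with a pseudocount of 2. Limits of 1 and 11 were not possible, since no tag had so few or so many G or C.

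The base-excess contrasts were the least stable. A-rich minus T-rich in H520 with BaP was 0.0154 with a pseudocount of 0.1, 0.00212 with the mean of both inputs, 0.00446 with at least 500 counts, 0.0621 as a mean over tags, and turned to -0.0443 with the input of the other line and to -0.0469 with a difference of at least 6 bases. With DMSO in H520 it was -0.0180 and -0.0586 under these last settings. In A549 it was 0.196 and 0.203 at 6 bases, and with BaP 0.0250 at 2 bases. G-rich minus C-rich in H520 with DMSO was -0.0729 and -0.0454 with pseudocounts of 0.1 and 2, -5.96e-05 with the other input, -0.139 as a mean over tags, -0.254 at 6 bases and -0.0479 at 2. With BaP in H520 it turned to 0.00947 with the other input and was -0.0772 with the mean of both inputs, -0.0955 as a mean over tags and -0.198 at 6 bases. In A549 with BaP it was 0.122 with the other input, 0.00401 with at least 10 counts, 0.138 at 6 bases and 0.0138 at 2, and turned to -0.0986 as a mean over tags, where DMSO gave -0.141. The cause was not tested. TpA and CpG contrasts were below 0 under every alternative run, from -0.146 to -0.0570 and from -0.0936 to -0.0036.

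At 1.5-fold, 9 high tags were called active in A549 with DMSO, 9 with BaP, 8 in H520 with DMSO and 9 with BaP, and 16 low tags in H520 were called below in each treatment. With the input of the other line, H520 gave 5 active high tags, 2 low tags called below 2-fold, 253 and 292 low tags above the median, and 126 and 122 high tags below it (DMSO and BaP). With A549 transfections 3 and 4 left out, which leaves fewer samples, 1496 low tags were below the median with DMSO. With BaP 0 low and 0 high tags were active, as were 0 of all tags, 188 low tags were above the median and 92 high tags below. For the lines, 4 low tags were called toward A549 under that setting. Leaving out 1 library gave 3 to 4 active high tags in A549 with BaP. For the lines, 22 low and 4 high tags toward A549 and 3 low and 2 high tags toward H520 were called with no input offset, and 49, 3, 2 and 2 at 1.5-fold. Leaving out 1 library gave 4 to 15 low calls toward A549.

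Transfection numbers are shared between groups, but samples with the same number did not deviate together throughout: correlations of their deviations were -0.015 to 0.49 in A549, 0.044 to 0.16 in H520 and -0.10 to -0.0081 between the lines, and 5 of 10, 9 of 10 and 0 of 10 libraries correlated best with their own number. With the replicate number as a block, edgeR called 0 members for BaP in either line, while over all tags in H520 it called 85 higher and 64 lower, and for the lines it called 7 low and 1 high tags toward A549 and 1 low tag toward H520. Depth limits single tags: an input count of 100 alone has a counting interval of -0.30 to 0.28 on the log2 scale, and each line has 1 input library.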
